A study of Mus musculus with 8 samples.

Results

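The 10 genes described here act in T cell precursors or in the progenitors before them: Rag1, Rag2, Dntt, Ptcra, Kit, Lyl1, Tal1, Hhex, Meis1 and Lmo2. They were chosen by symbol, with no measured value in the rule, and they are 10 of 18603 promoter windows with H3K27me3 values and 10 of 22410 genes with RNA values. Naive CD4+ T cells came from the lymph nodes of mice of the strain 129SV/B6, and H3K27me3 was measured by ChIP-seq and RNA by RNA-seq, with 1 library per genotype and assay. Of the 4 genotypes, wild type (WT) carried neither deletion, and the Ezh1 KO was Ezh1-/-. The Ezh2 KO was Ezh2 fl/fl with CD4-cre, which the sample labels write as Ezh2-/-. The double KO combined Ezh1-/- with Ezh2 fl/fl and CD4-cre. Values are also given as without Ezh1, without Ezh2 and without both, for these knockouts in turn. In CD4-cre mice the Cre recombinase is driven by Cd4 regulatory sequence, so that floxed Ezh2 is lost in the T lineage late in thymic development, whereas Ezh1-/- cells lack Ezh1 from the start. The age of the mice, and how many gave cells to a library, are not given in the sources used here. With 1 library per group there is no replicate spread and no test between genotypes, and every interval below covers counting error only.

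PRC2, a Polycomb repressive complex, works with either Ezh1 or Ezh2 as its catalytic subunit, and it trimethylates lysine 27 of histone H3 (H3K27me3) at promoters that are kept silent. Rag1 and Rag2 form the recombinase that cuts antigen receptor genes in developing T and B cells, and Dntt (terminal transferase) adds untemplated bases at the joints. Ptcra encodes the invariant chain of the pre-T cell receptor. Tal1 and Lyl1 are related basic helix-loop-helix factors that pair with E proteins and bind E-box sequences, and Lmo2 is the LIM-only adaptor that ties them to Ldb1 and GATA factors. Hhex and Meis1 are homeobox factors and Kit is the receptor for stem cell factor, and all of them work in early haematopoietic progenitors. Several of these genes (Tal1, Lyl1 and Lmo2 among them) are known as oncogenes in T cell acute leukaemia, and developing T cells normally shut them off. In these libraries all 10 genes had little or no RNA, 5 carried H3K27me3 above the level set below in WT, and the double KO divided them: the mark was lower at Lmo2, Lyl1, Rag2, Rag1 and Hhex and higher at Dntt, Ptcra, Meis1 and Tal1.

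The sequences just upstream of 5 of these windows are shown because the promoters on which the H3K27me3 results turn differ in base composition. Each is the 250 bases before the centre of the deposited window, read from the mouse genome build mm9 at the deposited coordinates, 5' to 3' on the strand of the gene, with CG dinucleotides in capitals. They are Lmo2 (chr2:103797893-103798142, plus strand), whose mark was lowest in the double KO relative to WT among the 10; Lyl1 (chr8:87225106-87225355, plus strand) and Rag2 (chr2:101464625-101464874, plus strand), which were also lower; Dntt (chr19:41103515-41103764, plus strand), which was higher; and Tal1 (chr4:114728781-114729030, plus strand), which had the most mark of the 10. No annotated exon of GENCODE vM1 overlaps these stretches.
Lmo2: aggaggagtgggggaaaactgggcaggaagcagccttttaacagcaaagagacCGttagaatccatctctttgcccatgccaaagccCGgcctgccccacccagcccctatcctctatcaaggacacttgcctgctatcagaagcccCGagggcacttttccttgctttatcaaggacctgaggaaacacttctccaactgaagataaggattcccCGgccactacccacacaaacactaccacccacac
Lyl1: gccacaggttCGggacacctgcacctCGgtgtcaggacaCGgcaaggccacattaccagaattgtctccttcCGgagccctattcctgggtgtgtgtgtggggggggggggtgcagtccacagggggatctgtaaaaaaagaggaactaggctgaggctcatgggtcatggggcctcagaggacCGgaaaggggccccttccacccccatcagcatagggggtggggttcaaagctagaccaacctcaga
Rag2: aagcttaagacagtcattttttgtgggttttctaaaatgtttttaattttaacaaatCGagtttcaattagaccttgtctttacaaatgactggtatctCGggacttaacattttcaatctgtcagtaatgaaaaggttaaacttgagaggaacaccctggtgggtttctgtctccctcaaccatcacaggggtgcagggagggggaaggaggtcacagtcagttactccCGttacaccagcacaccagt
Dntt: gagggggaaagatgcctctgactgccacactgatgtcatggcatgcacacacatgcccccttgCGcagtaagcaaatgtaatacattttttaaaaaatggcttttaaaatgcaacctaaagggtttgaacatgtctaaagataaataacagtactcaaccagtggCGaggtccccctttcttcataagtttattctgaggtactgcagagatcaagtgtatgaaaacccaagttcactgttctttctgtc
Tal1: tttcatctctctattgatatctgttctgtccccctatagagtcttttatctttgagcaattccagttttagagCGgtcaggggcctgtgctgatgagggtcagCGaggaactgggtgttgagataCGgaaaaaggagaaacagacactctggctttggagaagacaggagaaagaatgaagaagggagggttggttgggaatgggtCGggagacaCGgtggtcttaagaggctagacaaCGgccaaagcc

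The stretch before Lmo2 holds 4 CG dinucleotides, that before Lyl1 5, Rag2 3, Dntt 2 and Tal1 6, against a median of 11 over 17771 promoters with a known strand. Over the whole 6 kb window the genes separated more widely. Tal1 had 191 CG dinucleotides, Kit 190, Meis1 213 and Hhex 283, each more than in at least 86.5% of windows. Rag1 had 43, Rag2 50, Lmo2 60, Ptcra 63 and Dntt 81, all under the median of 117, and Lyl1 lay just over it with 132. The window centre is an annotated transcript start for 8 of the genes. The annotated start of Ptcra lies at -119 from the centre along the chromosome, and those of Hhex at -1954 and 1898. The Lmo2 window covers only the distal start of that gene: 8 further annotated starts, 11542 to 13193 bases downstream, lie outside it.

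An E-box, a GATA and a Runx motif were looked for in the 250 bases, on both strands. The E-box CAGNTG, the kind of site bound by Tal1 and Lyl1 with an E protein, occurs in 41.8% of all promoters. The GATA motif AGATAA occurs in 7.60% and the Runx motif TGTGGT in 12.0%. The Lmo2 stretch has an E-box whose first base is at -55 and a GATA motif at -48 from the centre. Tal1 and Dntt each have a GATA motif, at -205 and -112, and Lyl1 has an E-box at -235. Rag2 has none of the motifs in these letters. Among the promoters not printed, Rag1 has 3 E-boxes and 2 Runx motifs, Ptcra 2 E-boxes, Kit 1 E-box, Meis1 1 Runx motif and Hhex none. At least 2 Runx motifs are found in 0.945% of promoters and at least 2 E-boxes in 11.4%. These are matches of letters and no evidence of binding.

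The H3K27me3 libraries held 78.2 to 88.2 M reads and the RNA libraries 36.1 to 94.1 M, the double KO being the deepest in both assays and the WT the shallowest in RNA. RNA over the whole Ezh1 gene was 1.05 in WT, 0.196 without Ezh1, 1.12 without Ezh2 and 0.194 without both, as their labels say. Ezh2 RNA was 0.925, 0.913, 1.08 and 1.17 in WT and without Ezh1, Ezh2 or both, so these gene-wide values do not check its deletion. H3K27me3 at the Cd4 promoter, the sequence used to drive Cre, was 193 and 212 in the Ezh2 KO and double KO against 19.9 and 24.1 in the other libraries, which separates the CD4-cre genotypes. T cell markers had summed RNA of 175 to 206 with 8 of 8 at 1 or more in every library, and naive T cell markers summed to 124 in WT, 111 without Ezh1, 96.3 without Ezh2 and 97.5 without both. Of these Dapl1 differed most, at 17.9, 16.1, 10.4 and 4.06 in that order. Markers of 10 B cell genes summed to 3.12, 3.30, 5.53 and 9.17 in WT and without Ezh1, Ezh2 or both. Myeloid markers, 10 genes, summed to 0.581, 0.904, 0.967 and 1.57 in the same order, of which Lyz2 alone gave 0.275, 0.561, 0.576 and 1.19. None of the B cell markers was at 0 in any library, and among myeloid markers Cd14, S100a9 and Elane were at 0 in WT.

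H3K27me3 is given as the deposited area of a 6 kb window around the transcript start, the summed coverage per M reads. A window is called marked when its WT area was 4 or more times the median over 7077 background windows, those of genes in the top tertile of WT RNA. The background median was 10.1 and the threshold 40.6. By this rule 5 of the 10 genes were marked in WT, against 12.0% of all windows. Tal1 stood highest at 7.35 times background, followed by Meis1 at 5.95, Rag2 at 5.85, Lmo2 at 4.82 and Rag1 at 4.77. Hhex at 3.72 and Kit at 3.53 lay just under the threshold. Dntt at 1.69, Lyl1 at 1.64 and Ptcra at 1.56 were near the level of expressed genes. The recombinase genes Rag1 and Rag2 thus held more of the mark than the other thymocyte genes Dntt and Ptcra, and Tal1 held more than its relative Lyl1 and its partner Lmo2. Areas per M reads are shares of a library, so a change of the mark common to the whole genome cannot be seen. The median of windows marked in WT was 5.08 times the background median in WT. It was 6.54 times without Ezh1, 4.29 without Ezh2 and 5.47 without both.

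**Figure D1:**
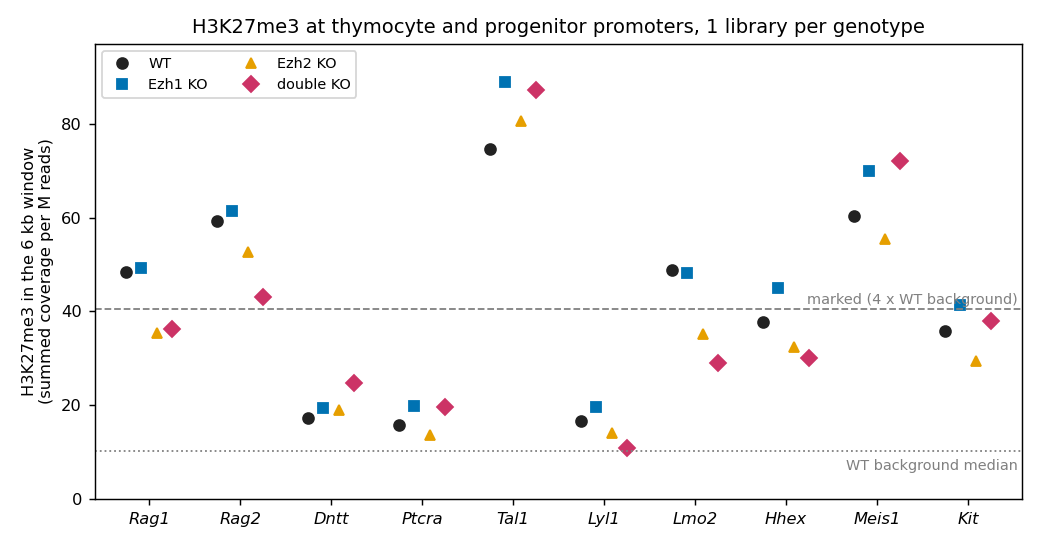
H3K27me3 area (summed coverage per M reads in the 6 kb window, vertical axis) of each of the 10 genes in the 4 libraries, 1 point per library, with the WT background median of 10.1 dotted and the threshold of 40.6 dashed. Tal1 is above 74 in all 4 libraries, Rag1 and Lmo2 lie under the threshold in the Ezh2 KO and double KO, and Lyl1 in the double KO is at 10.8, beside the background median.

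In the comparisons below a gene is called higher or lower when the exact 95% interval of its read ratio (Clopper-Pearson) leaves no change outside. Log2 ratios add 1 to both areas. These intervals come from 158 to 1281 read equivalents per gene and library, and no molecular identifiers separate PCR copies of a molecule. The recombinase genes lie 24.8 kb apart on chromosome 2 and moved alike in the double KO. Rag1 (chr2:101486658-101492658) had an area of 48.4 in WT, 49.3 without Ezh1, 35.3 without Ezh2 and 36.3 without both. The CD4-cre libraries were low and the others high. The log2 ratio to WT was 0.03 (interval -0.13 to 0.18) without Ezh1, -0.44 (-0.63 to -0.28) without Ezh2 and -0.41 (-0.58 to -0.25) without both. The window of B230118H07Rik, a gene that starts 31 bases from Rag1, covers nearly the same bases, so that the mark of the pair cannot be told apart.

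Rag2 (chr2:101461875-101467875) had an area of 59.3 in WT, 61.4 without Ezh1, 52.6 without Ezh2 and 43 without both. Here the double KO was lowest and the Ezh2 KO lay between it and the other libraries. The log2 ratio to WT was -0.17 (-0.33 to -0.03) in the Ezh2 KO and -0.46 (-0.62 to -0.31) in the double KO, and the double KO was lower than the Ezh2 KO by its own comparison, at -0.28 (-0.45 to -0.13). For Rag1 that last comparison gave 0.04 (-0.14 to 0.22). The neighbouring recombinase genes therefore had the same direction against WT, while only Rag2 of the pair was lower in the double KO than in the Ezh2 KO on the deposited scale. Rag1 was lower there too with marked windows set equal.

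Dntt and Ptcra had little mark in WT and had more in the double KO on the deposited scale. Dntt (chr19:41100765-41106765) had an area of 17.2 in WT, 19.3 without Ezh1, 18.9 without Ezh2 and 24.7 without both, which stood apart from the other libraries. Its log2 ratio was 0.50 (0.28 to 0.77) for the double KO against WT, 0.34 (0.13 to 0.59) against the Ezh1 KO and 0.36 (0.14 to 0.62) against the Ezh2 KO. Ptcra (chr17:46897661-46903661) had an area of 15.8 in WT, 19.8 without Ezh1, 13.7 without Ezh2 and 19.6 without both. The Ezh1-/- libraries were the high ones: the ratio to WT was 0.31 (0.06 to 0.59) without Ezh1, -0.19 (-0.50 to 0.09) without Ezh2 and 0.29 (0.05 to 0.58) without both. Both genes stayed under the marked threshold in every library, the highest area being 24.7. Under each of 4 other scalings Dntt was still higher than WT in the double KO. Ptcra was still higher, in the double KO and in the Ezh1 KO, only with background windows set equal.

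The genes of the Tal1 complex went apart. Tal1 (chr4:114726031-114732031) had an area of 74.6 in WT, 88.8 without Ezh1, 80.5 without Ezh2 and 87.2 without both. It had more mark than at least 99.4% of windows in every library. Its log2 ratio to WT was 0.25 (0.13 to 0.37) without Ezh1, 0.11 (-0.02 to 0.24) without Ezh2 and 0.22 (0.10 to 0.35) without both. Lmo2 (chr2:103795143-103801143) had an area of 48.9 in WT, 48.1 without Ezh1, 35.1 without Ezh2 and 29.0 without both. The Ezh1 KO did not separate from WT within counting error, the Ezh2 KO was lower, and the double KO was lowest. With background windows set equal, the double KO did not separate from the Ezh2 KO at Lmo2. The double KO held 0.594 times the WT area, a log2 ratio of -0.73 (-0.93 to -0.57), and the Ezh2 KO 0.719 times, at -0.47 (-0.65 to -0.30). Of all windows, 0.645% had a lower ratio in the double KO than Lmo2. The highest 25 bp bin in the Lmo2 window was 0.433, 0.318, 0.270 and 0.266 in WT and without Ezh1, Ezh2 or both, so by that measure the Ezh1 KO was also under WT.

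Lyl1 (chr8:87222356-87228356) had an area of 16.7 in WT, 19.5 without Ezh1, 14.1 without Ezh2 and 10.8 without both, the last at 1.04 times the background median of its own library. Its log2 ratio for the double KO was -0.58 (-0.93 to -0.32) against WT, -0.80 (-1.14 to -0.57) against the Ezh1 KO and -0.35 (-0.69 to -0.06) against the Ezh2 KO. It was thus lowest in cells without both enzymes on the deposited scale, although the gene was not marked in WT. With background windows set equal, the double KO did not separate from the Ezh2 KO at Lyl1. The single KO values did not separate from WT, at 0.22 (-0.03 to 0.49) in the Ezh1 KO and -0.23 (-0.54 to 0.04) in the Ezh2 KO.

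Of the homeobox genes and the growth factor receptor, Hhex was lower and Meis1 higher in the double KO on the deposited scale. Hhex (chr19:37506331-37512331) had an area of 37.8 in WT, 45 without Ezh1, 32.4 without Ezh2 and 29.9 without both. Its ratio to WT was 0.25 (0.08 to 0.42) without Ezh1, -0.21 (-0.41 to -0.03) without Ezh2 and -0.33 (-0.52 to -0.15) without both. Meis1 (chr11:18915961-18921961), a Hox cofactor, had an area of 60.4 in WT, 69.9 without Ezh1, 55.4 without Ezh2 and 72.1 without both. Both Ezh1-/- libraries were above WT, at 0.21 (0.08 to 0.35) and 0.25 (0.12 to 0.39), and the Ezh2 KO did not separate from it, at -0.12 (-0.27 to 0.02). Kit (chr5:75967941-75973941) had an area of 35.8 in WT, 41.3 without Ezh1, 29.4 without Ezh2 and 38.0 without both. It was higher in the Ezh1 KO at 0.20 (0.03 to 0.39), lower in the Ezh2 KO at -0.27 (-0.48 to -0.08), and near WT in the double KO at 0.08 (-0.09 to 0.27).

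**Figure D2:**
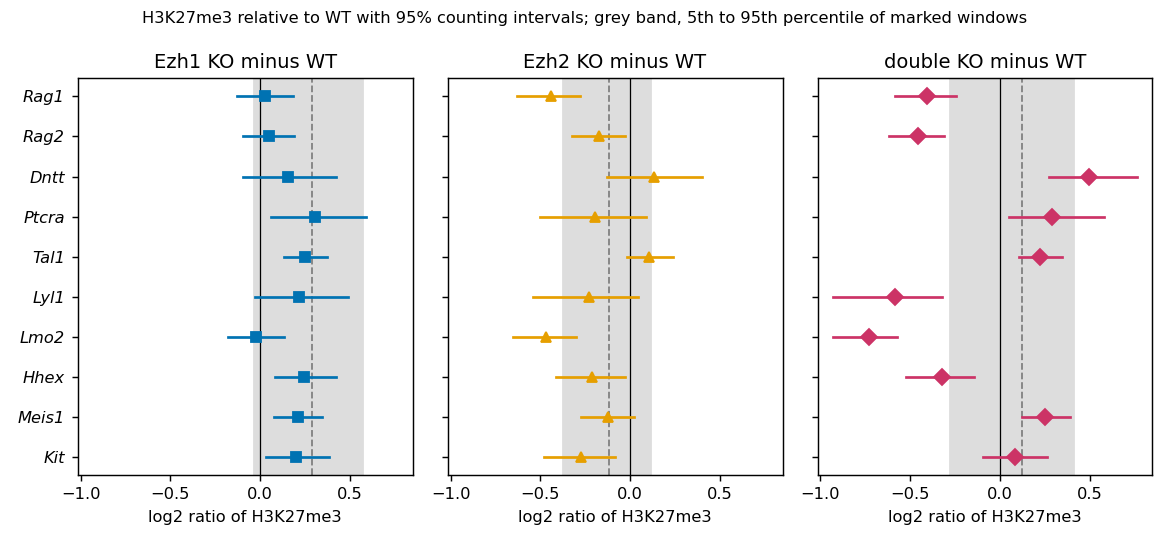
Log2 ratio of H3K27me3 to WT (horizontal axis) for each gene in the Ezh1 KO, Ezh2 KO and double KO, with 95% counting intervals. The grey band runs from the 5th to the 95th percentile of windows marked in WT and the dashed line is their median, 0.29, -0.12 and 0.12 in the 3 panels. In the double KO, Lmo2 at -0.73 and Lyl1 at -0.58 lie furthest to the left and Dntt at 0.50 furthest to the right.

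Counted together, 5 of 10 genes were higher than WT in the Ezh1 KO and 0 were lower, against 29.1% and 4.69% of all windows tested and 77.6% and 1.52% of marked windows. Their median log2 ratio was 0.21, against 0.29 over marked windows and 0.09 over all windows. When the libraries were scaled so that marked windows had equal medians, which takes 0.32 from each log2 ratio of the Ezh1 KO, 0 genes were higher and Rag1, Rag2 and Lmo2 were lower, and with TMM scaling Tal1 alone was higher. The gains of Kit, Tal1, Hhex and Meis1 in the Ezh1 KO were therefore no larger than that of a typical marked window. In the Ezh2 KO 0 genes were higher and 5 were lower (Lmo2, Rag1, Kit, Hhex and Rag2), against 8.35% and 15.8% of all windows and 3.41% and 37.7% of marked windows. The median was -0.20, against -0.12 over marked windows and -0.01 over all. With marked windows set equal, Rag1 and Lmo2 stayed lower and Tal1 was higher. With background windows set equal, which takes 0.13 from each ratio, 8 genes were lower, the other two being Dntt and Tal1.

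In the double KO 4 of 10 genes were higher than WT and 5 lower, against 18.5% and 9.31% of all windows and 45.3% and 10.4% of marked windows. The median log2 ratio of the 10 was -0.12, against 0.12 over marked windows and 0.05 over all. The same 5 genes (Rag1, Rag2, Lyl1, Hhex and Lmo2) were lower under each of 4 other scalings. With marked windows set equal, Dntt alone was higher, so the gains of Tal1, Meis1 and Ptcra depend on the scale. Lower than WT in both the Ezh2 KO and the double KO were Rag1, Rag2, Hhex and Lmo2, 4 of 10 against 6.01% of all windows. These comparisons share the WT library. No gene was 2-fold from WT in the double KO, where 0.0334% of windows were up by 2-fold or more and 0.139% down.

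Set against the Ezh1 KO, double KO cells had less mark at 5 of the 10 genes (Lyl1, Lmo2, Hhex, Rag2 and Rag1) and more at 1, Dntt. Of all windows 24.9% were lower and 7.16% higher in that comparison, and of marked windows 61.0% and 1.26%. With marked windows set equal, Tal1 and Meis1 joined Dntt as higher. Set against the Ezh2 KO they had more at 4 (Ptcra, Meis1, Dntt and Kit) and less at 3 (Lyl1, Rag2 and Lmo2). Of all windows 22.0% were higher and 5.57% lower, and of marked windows 70.6% and 2.69%. The median of the 10 was 0.08, against 0.23 over marked windows. With marked windows set equal none was higher and 6 were lower, and with background windows set equal 5 were higher and only Rag2 was lower. The double KO library enters both comparisons. The effect of removing Ezh1 was also compared between cells with and without Ezh2, a difference of 2 log2 ratios that share no library. The log2 ratio for the loss of Ezh1 was lower in cells without Ezh2 than in cells with it at Lyl1, with a difference of -0.57 (-0.97 to -0.17), at Hhex of -0.36 (-0.61 to -0.10) and at Rag2 of -0.33 (-0.54 to -0.12). On the deposited scale that is 3 of 10 below 0 and 0 above, against 7.90% and 2.52% of all windows and 18.9% and 5.02% of marked windows. Under each of the 4 other scalings Meis1 was above 0, by 0.20 (0.01 to 0.40) with TMM and 0.22 (0.03 to 0.41) with marked windows set equal. At Lmo2 the difference was -0.24 (-0.49 to 0.00).

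The windows were also split by their CG dinucleotides, after the values were seen. On the deposited scale Rag1, Rag2 and Lmo2, the marked genes under the median of CG content, were lower in the double KO. Tal1 and Meis1, the marked genes above it, were higher. Over all windows marked in WT, the 578 under the median had a median log2 ratio of 0.02 in the double KO, with 20.1% lower and 21.5% higher. The 1653 at or above it had 0.16, with 7.08% lower and 53.7% higher. Even among the 578, only 1.21% had a lower ratio than Lmo2, 3.98% than Rag2 and 5.19% than Rag1. Among genes not marked, Hhex, with the most CG of the 10, was lower, and Dntt and Ptcra, with few, were higher, so CG content does not order the 10 genes.

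**Figure D3:**
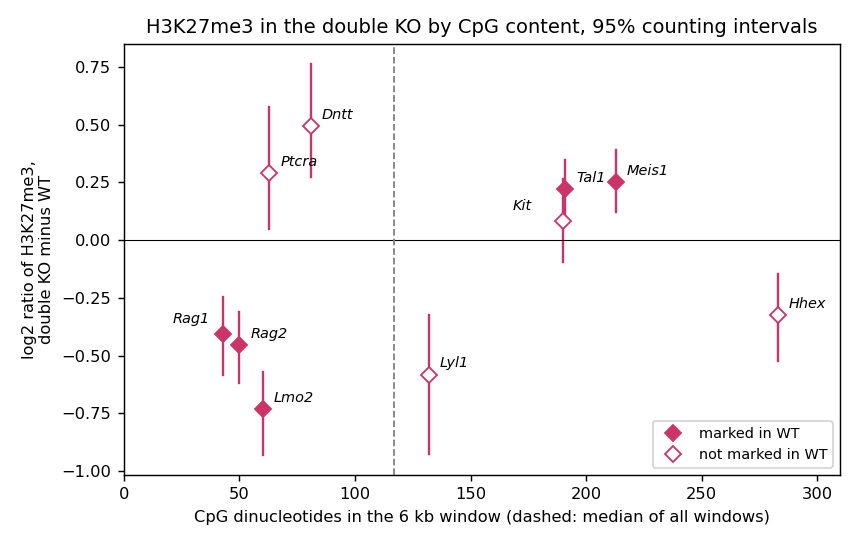
Log2 ratio of H3K27me3 in the double KO to WT (vertical axis, with 95% counting intervals) against the number of CG dinucleotides in the 6 kb window (horizontal axis), filled for the 5 genes marked in WT. The dashed line is the median of all windows, 117. The filled points left of it (Rag1, Rag2 and Lmo2) are below 0 and those right of it (Tal1 and Meis1) are above 0, while the open points lie on both sides.

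RNA is given as the peak coverage of each exon, averaged over a gene's exons by the authors and scaled to M reads, a height and not a count. In bulk cells, fewer cells with a transcript and less transcript per cell cannot be told apart. All 40 values of the 10 genes were under 1, a level that 22.8% of genes reached in WT, 21.6% without Ezh1, 22.4% without Ezh2 and 22.1% without both. That level was the minimum for a 2-fold comparison, so 0 of 10 genes entered it. Of the 5313 genes that did, 1.07% were at least 2-fold up in the double KO and 0.169% down. The median over the 10 genes was 0.0422, 0.0395, 0.0418 and 0.0391 in WT and without Ezh1, Ezh2 or both, against 0.0617, 0.0583, 0.0738 and 0.0638 over all genes. A read was worth 0.0277 in WT, 0.0142 without Ezh1, 0.0246 without Ezh2 and 0.0106 without both, and 12 of the 40 values were below that height. The recombinase genes were at this limit: Rag1 was at 0.0277, 0.0276, 0.0275 and 0.0213 and Rag2 at 0.0126, 0.0237, 0.0197 and 0.00850. Their lower mark in the CD4-cre libraries came with RNA of at most 2.00 reads at the mean exon peak.

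Ptcra was at 0.00692, 0.0168, 0.00615 and 0.00266, under a single read except in the Ezh1 KO. Tal1 was listed at 0 in WT and was 0.00203, 0.00351 and 0.00455 in the knockouts. Meis1 was at 0.0183, 0.0171, 0.0244 and 0.0190 and Kit at 0.0567, 0.0553, 0.0673 and 0.0569. None of these genes showed a library that stood apart beyond the height of a few reads. Dntt was detected in every library, at 0.249, 0.184, 0.292 and 0.396 in WT and without Ezh1, Ezh2 or both. Its RNA was highest in the library where its H3K27me3 was also highest.

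**Figure D4:**
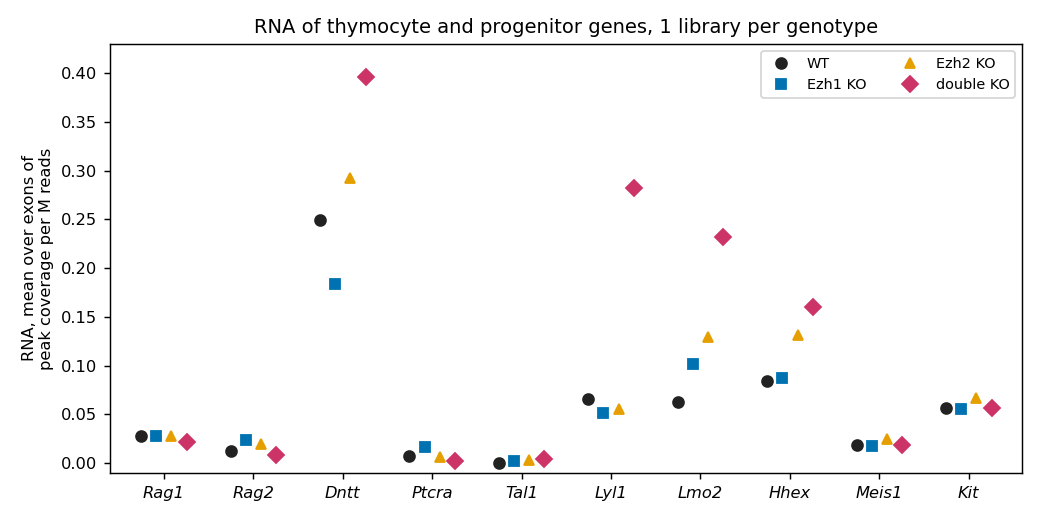
RNA of the 10 genes (peak coverage averaged over exons, per M reads, vertical axis) in the 4 libraries, 1 point per library. All points are under 0.4, and Dntt, Lyl1 and Lmo2 in the double KO, at 0.396, 0.282 and 0.232, are the highest of their genes.

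Lyl1 and Lmo2, with less mark in the double KO, had more RNA there. Lyl1 was at 0.0653 in WT, 0.0514 without Ezh1, 0.0561 without Ezh2 and 0.282 without both, which alone stood apart. Lmo2 was at 0.0624, 0.102, 0.129 and 0.232, with both CD4-cre libraries and the Ezh1 KO above WT. In reads at the mean exon peak the step from WT to double KO was from 2.36 to 26.5 for Lyl1 and from 2.25 to 21.8 for Lmo2, in a library with 94.1 against 36.1 M reads. On the log2 scale with 0.1 added, the difference from WT was 1.21 for Lyl1 and 1.03 for Lmo2. Without the minimum of 1 these 2 of 10 genes were at least 2-fold higher in the double KO, against 0.562% of 22410 genes. By the median over exons the differences were 0.77 for Lyl1 and 0.82 for Lmo2, so neither reached 2-fold. Hhex was at 0.0839, 0.0875, 0.132 and 0.160, a difference of 0.50 in the double KO. Its median over exons was 0.0432, 0.0262, 0.0492 and 0.0374, which did not follow the mean. The TMM factor of the double KO RNA library relative to WT was -0.12 on the log2 scale, and dividing by it raises every double KO ratio to WT. The differences of Lyl1, Lmo2, Hhex and Dntt from WT could therefore not shrink under that scaling, which is no check of them. Without replicates no error can be given for these differences.

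Lyl1, Lmo2 and Hhex are also expressed in cells of the B lineage, and B cell markers moved the same way. Of 10 B cell markers, 5 had RNA of at least 1 in the double KO and 0 in WT. All 5 were at least 2-fold higher in the double KO, and without the minimum 9 of 10 were. H3K27me3 at B cell marker windows was lower than WT in the double KO at 5 of 10 and higher at 0, against 9.31% and 18.5% of all windows. Among myeloid markers Lyz2, a lysozyme gene, was at 0.275, 0.561, 0.576 and 1.19, while S100a9 and Elane were at or near 0. From WT to the double KO, Tyrobp went from 0.173 to 0.205, Csf1r from 0.0313 to 0.0526 and Fcer1g from 0.0166 to 0.0474. Itgam fell from 0.0586 to 0.0493 and S100a8 from 0.0185 to 0. The part of B cells or other cells in the RNA and in the mark of Lyl1, Lmo2 and Hhex was not tested. Tal1, Meis1, Kit, Rag1 and Rag2 had no such increase of RNA in the double KO. B230118H07Rik, whose window covers nearly the same bases as that of Rag1, did rise. Its RNA was 0.0698, 0.0665, 0.0812 and 0.149 in WT and without Ezh1, Ezh2 or both. The lower mark of that shared window thus came with more RNA of 1 gene of the pair.

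**Figure D5:**
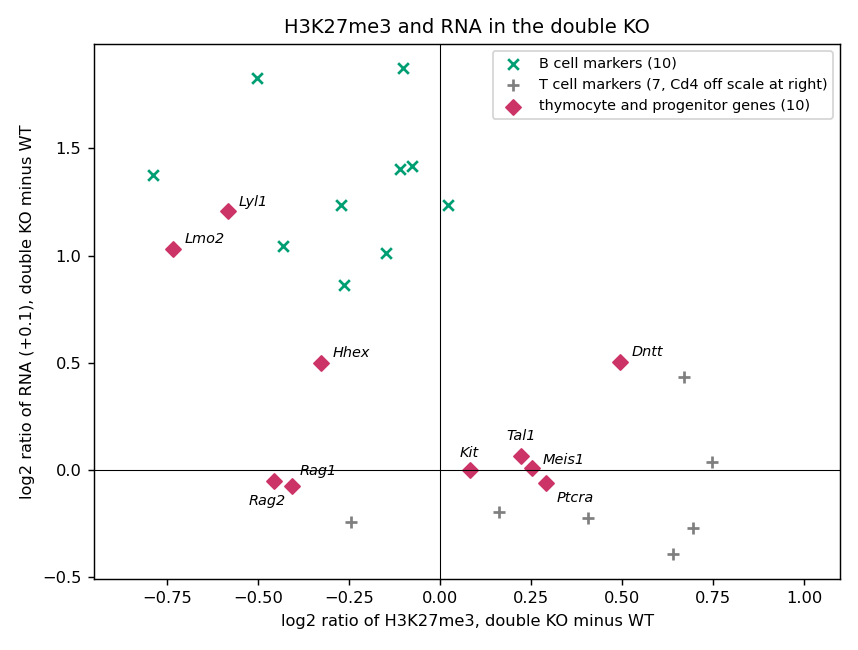
Log2 ratio of RNA (0.1 added, vertical axis) against log2 ratio of H3K27me3 (horizontal axis), double KO to WT, for the 10 genes, 10 B cell markers and T cell markers, with Cd4 off the scale. Lmo2 (-0.73 and 1.03) and Lyl1 (-0.58 and 1.21) lie at the upper left among B cell markers, Rag1 and Rag2 have less mark with RNA ratios of -0.07 and -0.05, and Dntt lies at the upper right (0.50 on both axes), with the T cell marker Cd3e at 0.67 and 0.43 near it.

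The nearest windows on both sides of each gene were read as well. Rag1 and Rag2 are neighbours of each other. On the other side of Rag1 lies B230118H07Rik, in nearly the same window, with -0.40 (-0.58 to -0.25) in the double KO. On the other side of Rag2 the nearest window was 3996 kb away, at -0.04 (-0.43 to 0.33), so no separate window lay close to this pair. Dntt lies 34.7 kb from Blnk, which encodes a B cell adaptor protein. At Blnk the area was 17.4, 18.9, 14.2 and 12.1 in WT and without Ezh1, Ezh2 or both, a ratio of -0.49 (-0.82 to -0.24) in the double KO, while its RNA was 0.145, 0.179, 0.368 and 0.555. The mark at Dntt and at Blnk thus went in opposite directions in that library, and the RNA of both was highest there. On the other side of Dntt, Opalin was higher in the double KO than in WT, at 0.30 (0.03 to 0.61). On the side of Lmo2, Caprin1 (160 kb away) and Fbxo3 (69.7 kb) did not separate from WT, at 0.03 (-0.36 to 0.44) and -0.23 (-0.50 to 0.01). Next to Lyl1, Trmt1 (12.2 kb) at 0.21 (-0.19 to 0.68) and Nfix (98.9 kb) at -0.12 (-0.31 to 0.06) did not either. Nor did Stil (56.3 kb) at 0.04 (-0.28 to 0.38) and Pdzk1ip1 (32.3 kb) at -0.17 (-0.36 to 0.01), which flank Tal1. The neighbours of Ptcra, Cnpy3 (11.5 kb) and 2310039H08Rik (8.92 kb), had 0.20 (-0.13 to 0.57) and 0.26 (-0.06 to 0.63). Of the genes flanking Hhex, Exoc6 (116 kb) was lower in the double KO at -0.40 (-0.72 to -0.14) and Kif11 (58.4 kb) did not separate, at -0.22 (-0.58 to 0.09). Of those flanking Meis1, Spred2 (905 kb) was higher at 0.46 (0.16 to 0.85) and Etaa1 (1065 kb) had 0.07 (-0.26 to 0.41). Kit lies between Pdgfra (423 kb) and Kdr (404 kb), receptor genes that were both marked. Pdgfra was higher at 0.46 (0.33 to 0.60) and Kdr had 0.12 (-0.03 to 0.27).

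Genes that work with the 10 were read from lists. Their counts in the double KO stand beside 18.5% of all windows higher and 9.31% lower than WT. Of the partners of Tal1 and E proteins, 7 of 15 windows were higher and 2 lower, with a median of 0.21. Gata3, a T cell factor, had an area of 81.8, 96.8, 95.6 and 94.8, and Gata2, its progenitor relative, 43, 65.0, 37.7 and 60.8. Cbfa2t3, a corepressor of the Tal1 complex, had 20.2, 29.0, 12.1 and 7.87 in WT and without Ezh1, Ezh2 or both. Its ratio in the double KO, -1.26 (-1.69 to -1.04), was past 2-fold, with RNA of 0.118 in WT against 0.176. Id2, an inhibitor of E proteins, had RNA of 3.65, 3.91, 7.41 and 4.58, highest in the Ezh2 KO. Ldb1, the scaffold that Lmo2 binds, had RNA of 7.43, 7.50, 6.97 and 6.70 and little mark, 6.61 in WT.

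Of 18 other stem and progenitor cell windows, 4 were higher and 4 lower in the double KO, with a median of 0.00 and 7 marked in WT. Hoxa9 and Hoxa10, partners of Meis1, were higher like it, at 0.39 (0.28 to 0.51) and 0.37 (0.27 to 0.49). Cd34, a progenitor surface protein, was lower at -0.24 (-0.39 to -0.09). Bcl11a, a factor of early B and progenitor cells, was lower at -0.42 (-0.69 to -0.20) and its RNA was 0.133, 0.113, 0.272 and 0.451. The end joining factors that complete V(D)J recombination were unlike Rag1 and Rag2 in that 0 of 13 windows were marked. In the double KO 0 were higher and 2 lower, with RNA of 2.23, 2.08, 2.42 and 2.05 for Xrcc6, a subunit of the Ku end-binding complex.

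Of 20 thymocyte stage windows 4 were higher and 4 lower in the double KO, the higher share being near the 18.5% of all windows. Cd24a, a surface protein of immature thymocytes and B cells, had an area of 29.9, 32.0, 19.3 and 13.8, a ratio of -1.07 (-1.37 to -0.87), and RNA of 0.316, 0.379, 0.487 and 0.831. Hes1, a Notch target, had an area of 43.2, 45.8, 37.7 and 21.1, a ratio of -1.0 (-1.24 to -0.83), with RNA of 0.0144 in WT and 0.055 in the double KO. Dtx1, another Notch target, went the other way, with a ratio of 0.77 (0.53 to 1.14) and RNA of 3.26, 3.77, 6.19 and 7.06, at least 2-fold higher than WT in the double KO. Ccr9, a chemokine receptor of thymocytes, had RNA of 0.632 in WT against 1.54 without Ezh2. Among 15 T cell commitment windows 10 were higher and 0 lower in the double KO, against 18.5% and 9.31% of all windows, with a median of 0.49. Bcl11b, the factor that closes progenitor potential in T cell precursors, had an area of 14.5, 30.7, 23.8 and 34.7, a ratio of 1.21 (1.02 to 1.51), with RNA of 6.62, 7.72, 7.26 and 5.73. None of these lists was tested against other genes, and WT enters every ratio.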

How the data were processed

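H3K27me3 ChIP-seq and RNA-seq were deposited for naive CD4+ T cells of 4 genotypes, 1 library each. Per the labels' protocols, reads of 50 cycles were aligned to mm9 with Bowtie 0.12.7, keeping those with at most 2 errors and a single location. Cufflinks, Cuffdiff and bcl2fastq appear in the submitters' processing notes with no role stated. Per the file headers, the deposited signal is the area and highest bin of coverage around each start, and for RNA the mean and median over exons of peak coverage, beside a number of exons. The scale per M reads, 25 bp bins, the 6 kb window and each depth were read from the deposited values. Input subtraction is not given in the sources used here.

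Computed here (Python 3.11.15, pandas 2.3.3, scipy 1.17.1) were log2 ratios with 1 (H3K27me3) or 0.1 (RNA) added, a minimum of 1 in the higher library for a 2-fold call, and exact 95% Clopper-Pearson intervals on reads recovered from the areas. The difference between Ezh1 effects used a normal approximation of counting error. The ratio and interval steps were tested on simulated data. Every one of the 10 genes is named. The lists of related genes gave every gene at least 2-fold from WT in mark or RNA with a value of 1 or more, and examples from the 3 highest in WT mark or RNA. Single markers of other cell types were named after their values were seen. The 10 genes and the lists were chosen with earlier results of these data known, and the CG split, the motifs and the printed sequences after the values were seen. Of the end joining list 13 of 14 genes matched, and Spi1 matched as Sfpi1 through its RefSeq synonym. Alternatives were other scalings (TMM, median of ratios, equal background, equal marked windows), the highest bin, the median over exons, pseudocounts, minimums and thresholds.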

Additional observations from a re-analysis of the deposited data

Results flagged for a closer look

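At 3 of the 10 genes the log2 ratio of H3K27me3 for the loss of Ezh1 differed between cells with and without Ezh2, with a counting interval of the difference that left 0 outside and ratios of opposite sign on the deposited scale. The signs themselves are not settled, since the ratio to WT without Ezh1 at Rag2 and Lyl1, and the ratio between the double KO and Ezh2 KO at Hhex, had intervals that include 0. At Rag2 the log2 ratio was 0.05 for the Ezh1 KO against WT and -0.28 for the double KO against the Ezh2 KO, a difference of -0.3324. At Lyl1 these ratios were 0.22 and -0.35, a difference of -0.5709. At Hhex they were 0.25 and -0.11, a difference of -0.3573. The Ezh1 KO ratios of all 3 genes were below 0 with marked windows set equal. Over 4 other scalings of the libraries the differences stayed below 0 with intervals that excluded it, the smallest being -0.28 at Rag2, -0.51 at Lyl1 and -0.30 at Hhex. The interval covers counting error in 4 libraries, and the difference was not tested against replicates.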

How the results depend on the processing

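Each genotype has 1 library per assay, so nothing here has a replicate error and a library cannot be left out. No paired analysis was possible because no group has a second replicate. Of 350 alternative values of single H3K27me3 ratios 302 stayed within counting error, as did 147 of 150 for RNA. Among 120 counts of genes 98 stayed within 1.5 times. Those 98 include many RNA counts of 0 that could hardly move, since none of the 40 RNA values reached 1. They therefore say little about stability, and the counts that moved were mostly of H3K27me3. The 5 genes lower in the double KO than in WT stayed 5 under every scaling, and so did the 5 lower than in the Ezh1 KO with marked windows set equal. The 5 genes marked in WT became 3 at 5 times background, 3 with the median of all windows as background, and 1 by the highest bin. With marked windows set equal, higher and lower genes numbered 0 and 3 without Ezh1, 1 and 2 without Ezh2, and 1 and 5 without both, each against WT. For the double KO they numbered 3 and 5 against the Ezh1 KO but 0 and 6 against the Ezh2 KO. Under that scaling the Ezh1 KO ratios turned to -0.11 at Kit, -0.065 at Tal1, -0.064 at Hhex and -0.10 at Meis1. With TMM or median-of-ratios scaling 1 gene was higher in the Ezh1 KO. With background windows set equal 8 genes were lower in the Ezh2 KO, and 1 was lower in the double KO than in the Ezh2 KO. By the sign of the highest bin, with no interval, 8 genes were higher and 2 lower without Ezh1, 2 higher and 8 lower without Ezh2, and 9 lower in the double KO than in the Ezh1 KO, where Dntt turned to -0.080. For RNA, 2 genes were at least 2-fold higher in the double KO with no minimum, and 1 gene there passed a level of 0.3. These moves follow from the scale or measure used, and no other cause was tested. Adding 0.1 or 10 in place of 1 changes no count, since the interval adds nothing. RNA of the 10 genes is limited by depth, with 12 of 40 values under the height of 1 read.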

Other observations

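Markers of other cell types that a lymph node sort could hold had these summed RNA levels, in the order WT, without Ezh1, without Ezh2 and without both. Dendritic cell markers (8 genes) summed to 5.14, 4.44, 8.44 and 9.71. Most of it came from Bst2, which was at 4.62, 3.96, 7.82 and 8.63 and is also induced by interferon in other cells. From WT to the double KO, Siglech went from 0.0821 to 0.387, Clec9a from 0.0562 to 0.175 and Itgax from 0.0347 to 0.0875. Flt3 (0.101 to 0.186) and Cd209a (0.0198 to 0.0485) were also higher there, while Xcr1 (0.0831 to 0.0682) and Zbtb46 (0.142 to 0.126) were lower. Markers of NK and cytotoxic cells (8 genes) summed to 3.03, 2.31, 6.25 and 3.30, and did not move together. The granzyme gene Gzma was at 0.226, 0.270, 2.90 and 1.13, and Klrb1c at 0.110, 0.0940, 1.03 and 0.0498. Prf1 at 1.43, 1.03, 1.07 and 1.06 and Klrd1 at 0.854, 0.459, 0.398 and 0.516 were below WT in every knockout. Markers of mast cells and basophils, which express Kit, summed to 0.366, 0.358, 0.330 and 0.455. Erythroid and platelet markers summed to 0.607, 0.295, 0.185 and 0.197, and endothelial and stromal markers to 4.62, 4.45, 4.37 and 4.24, nearly all from Pecam1. Double-positive thymocyte markers summed to 8.19, 7.17, 7.90 and 9.84, of which Themis, also expressed in mature T cells, gave 5.26, 4.51, 5.00 and 5.72. Lymphoid progenitor markers summed to 16.4, 14.8, 13.2 and 16.0, of which Il7r, also expressed in naive T cells, gave 14.7, 13.3, 11.2 and 13.6.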
